A study of Mus musculus with 2 samples.

Results

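The genes of the eukaryotic translation initiation factors were examined in F2 cells, a mouse vascular endothelial line given a construct that drives Ca2+ entry under light. Members were all gene probe sets, each a group of probes for a gene, whose annotated symbol starts with Eif and a factor number from 1 to 6, leaving out the 4 kinases Eif2ak1, Eif2ak2, Eif2ak3 and Eif2ak4. This gave 44 members, each with 1 probe set, of 22206 gene probe sets in all. The members fell into eIF1 (4 genes), eIF2 (5), its exchange factor eIF2B (5), eIF3 (12), eIF4 (11), genes that bind eIF4E (3), eIF5 (3) and eIF6 (1). A further 8 protein-coding genes with such symbols in the RefSeq annotation, namely Eif1, Eif2s1, Eif3g, Eif3j1, Eif4a2, Eif4ebp3, Eif4g1 and Eif5, have no named probe set in the annotation used and were not analysed here.

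The blue light array came from F2 cells transfected with hBACCS2, a fusion of a light sensor with STIM1 that opens the Ca2+ channel ORAI1, and irradiated at 470 nm and about 0.4 mW/mm2. Light was on for 2 min and off for 18 min, and this was repeated for 4 h. The no blue light array came from F2 cells that were transfected with the same construct and kept unlit. Both arrays thus share the construct, which the CAG promoter drives, and the cell line, which was derived from a tumour induced by UV in mice of mixed BALB/c and C57BL/6 background. The sources are not unanimous. The series design describes control cells without hBACCS2, the growth text shared by both samples mentions a mock plasmid and their treatment text mentions irradiation. The sample titles, which give only the light status, are followed here for the light. For the construct, the sample descriptions are followed and the study's figure legend, which names hBACCS2-transfected cells in both conditions. Transfection was transient and reached only part of the cells, so each signal is an average over cells with and without the construct, and a change in a few cells cannot be told apart from a smaller change in all of them. No array came from lit cells without the construct, so an effect of light itself was not tested apart from that of Ca2+ entry. With 1 array per condition, no difference has a replicate, no test was made and no p-value or SD is given.

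Initiation is the step at which a ribosome is loaded onto an mRNA and set at a start codon. The factor eIF2 brings the initiator tRNA to the small subunit and is recharged with GTP by eIF2B. Scanning and start codon choice involve eIF1 and eIF1A, the multisubunit eIF3 holds the small subunit and the mRNA together, and the eIF4 factors bind and unwind the capped end of the mRNA. Joining of the large subunit needs eIF5 and eIF5B, and eIF6 keeps free large subunits apart from small ones. Stress signals and Ca2+ release are known to act on this machinery mainly through phosphorylation of eIF2 and of the eIF4E-binding proteins, which a transcript array does not read.

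Most endothelial markers were over a signal of 24 on both arrays. Cdh5, which encodes VE-cadherin, had a signal of 231900 with blue light and 284500 without it. Of 11 measured markers, 10 were over 24 on both arrays, beside 11695 of all 22206 gene probe sets. The exception was the tight junction gene Cldn5 at 5.03 with blue light and 4.50 without it. Vwf passed narrowly, at 41.3 with blue light and 27.8 without it, close to the epithelial gene Krt8 at 41.9 and 25.5. Of 19 measured markers of smooth muscle, fibroblast, blood and epithelial cells, 3 were over 24 on both arrays (Acta2, Col1a1 and Krt8), and the smooth muscle gene Acta2 stood at 92.2 with blue light and 81.4 without it. The median of 5222 negative control probes was 26.5 with blue light and 26.2 without it, but these single probes vary widely, and their 95th percentile was 324 with blue light and 333 without it. The 8 spiked control transcripts differed by -0.22 to 0.11 on the log2 scale. Signals depend on the probes as well as on the RNA, so the size of a signal was not compared between genes, beyond whether it passed the cutoff or the level of the negative controls.

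Among initiation factor genes, 0 passed 2-fold when each array had to exceed a signal of 24. The study's methods give that signal but not whether each array has to pass it, and with a pass on either array the count was 1 higher, Eif4a3l1. With both arrays set to the same median the count was 1 lower, Eif1ax, at -1.02 on the log2 scale. Of the 44 members, 41 had a signal over 24 on both arrays, and 0 of these had a ratio of blue light over no blue light above 2 and 0 had a ratio under 0.5. Over that signal were 11695 of all 22206 gene probe sets, of which 0.958% were higher and 1.37% were lower past the same cutoff. The 41 members had a median log2 difference, blue light minus no blue light, of 0.04, against -0.01 over all gene probe sets, and ranged from -0.98 for Eif1ax to 0.66 for Eif4e3. Above 0 were 25 of them and below 0 were 16, a share above 0 of 61%, against 48.5% of all gene probe sets. That split rests on small differences, since it was 20 above and 21 below, or 48.8% above, when both arrays were set to the same median. The share above 0 over all gene probe sets fell as well under that setting, to 43.9%. As many as 28 of the 41 members differed by less than 0.3 on the log2 scale. In the plot of signals by gene, the paired symbols of most genes lie close together.

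**Figure D1:**
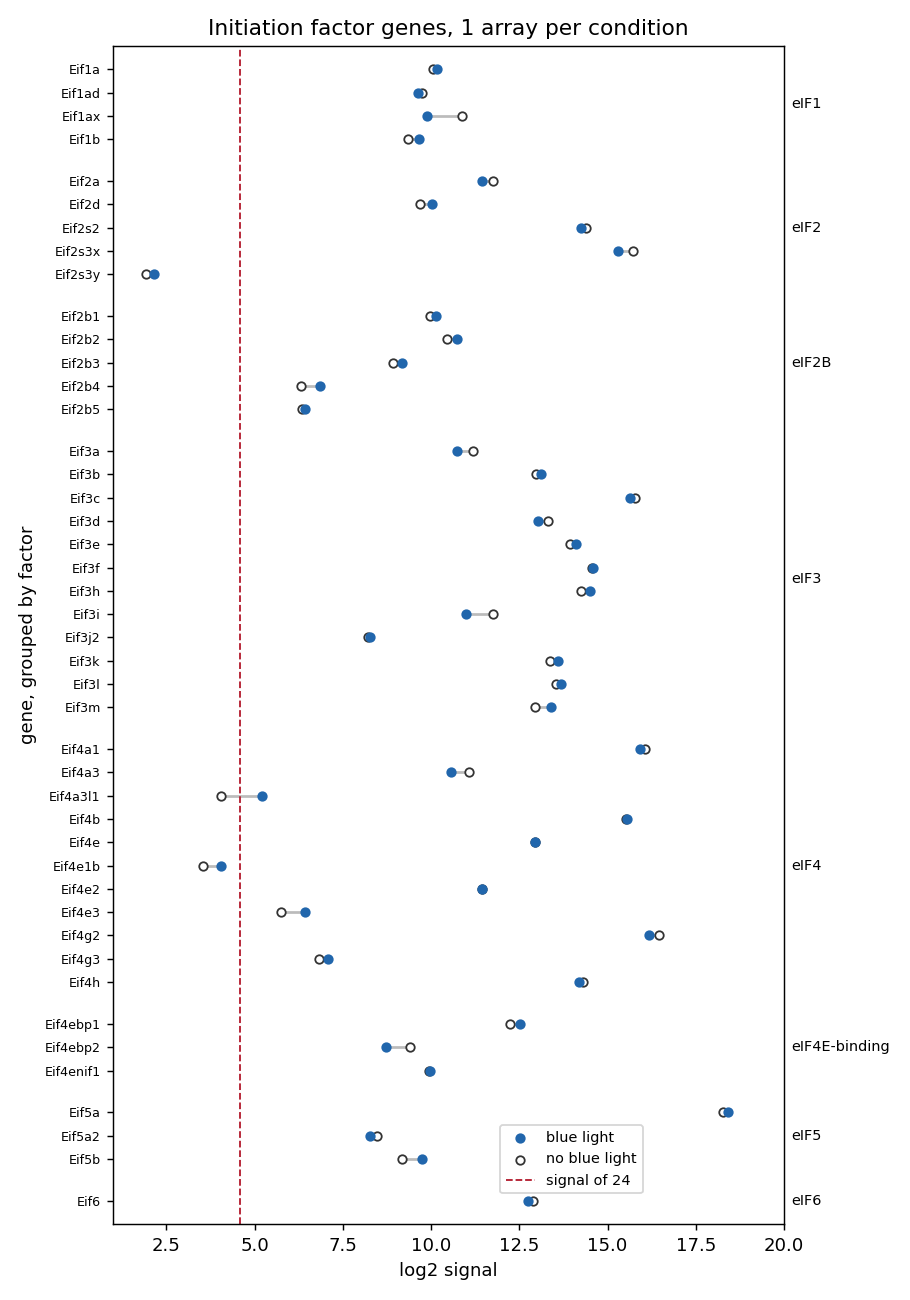
Log2 signal of each of the 44 initiation factor genes on the blue light array (filled) and the no blue light array (open), grouped by factor, with the signal of 24 as a dashed line. Only Eif2s3y, Eif4e1b and Eif4a3l1 have a symbol left of the line, and Eif1ax has the longest gap among the genes that lie right of it on both arrays.

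At a lower cutoff of 1.5-fold, 1 member was higher with blue light and 3 were lower, where 7.55% of all gene probe sets over the signal cutoff were higher and 8.47% were lower. The higher one was Eif4e3 and the lower ones were Eif1ax, Eif3i and Eif4ebp2. To see how such differences compare with those of genes of similar brightness, each was set beside the central 95% of the 500 gene probe sets nearest in mean signal, a range that leaves out 5% of probe sets by construction. Of the 41 members, 2 lay below their range, Eif1ax and Eif3i, and 0 lay above it. The ranges are those of this pair of arrays and hold both array error and any real differences.

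**Figure D2:**
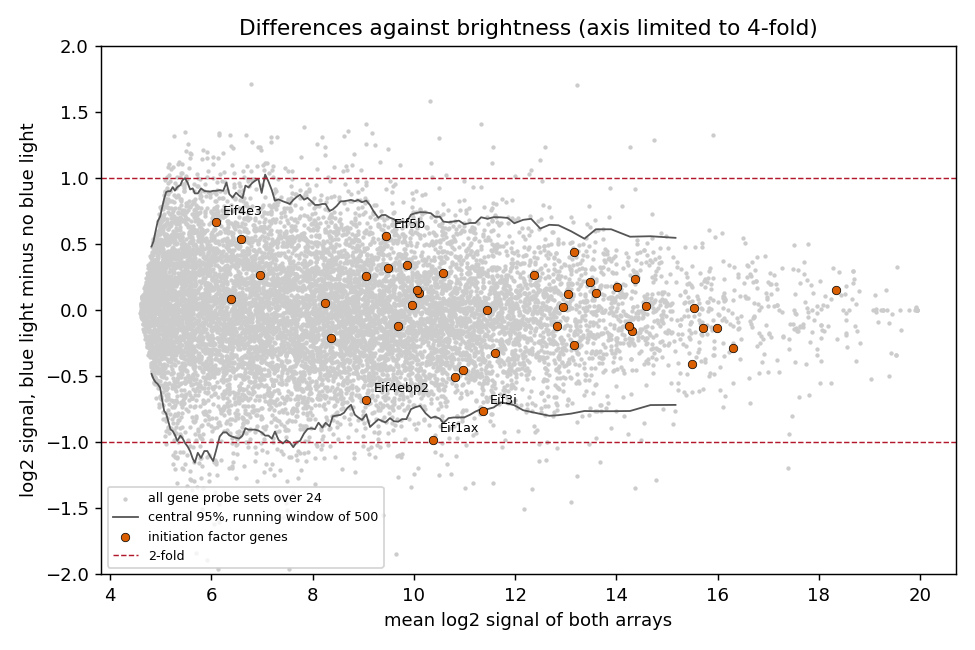
Log2 difference, blue light minus no blue light, against the mean log2 signal for 41 initiation factor genes (orange) and all gene probe sets with a signal over 24 (grey), with the central 95% of a running window of 500 probe sets (dark lines) and 2-fold (dashed), with points past 4-fold not drawn. All orange points lie between the dashed lines, and Eif1ax at -0.98 is the nearest to them.

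The eIF1 genes held the lowest value of all. Eif1ax, which encodes the X-linked copy of the scanning factor eIF1A, had a signal of 946 with blue light and 1867 without it, a ratio of 0.507. Its log2 difference of -0.98 was below the range of its brightness neighbours, which ran from -0.81 to 0.72. Eif1a, another gene for eIF1A, had signals of 1158 with blue light and 1057 without it, a difference of 0.13. The log2 differences of the 2 copies were thus 1.11 apart. These genes are close in sequence, and whether their probes tell them apart was not tested. Eif1b, a relative of the start codon factor eIF1, had signals of 807 with blue light and 646 without it, a ratio of 1.25. Eif1ad, which shares a domain with eIF1A, stood at 795 with blue light and 862 without it.

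For eIF2 the subunit genes that were measured lay on the lower side. Eif2s3x, which encodes the gamma subunit that binds GTP and the initiator tRNA, had a signal of 40290 with blue light and 53520 without it, a ratio of 0.753. The beta subunit gene Eif2s2 had signals of 19280 with blue light and 21520 without it and a ratio of 0.896. Both ratios were inside the range of their brightness neighbours. The Y-linked gamma gene Eif2s3y read 4.46 with blue light and 3.78 without it, well under the signal cutoff on both arrays. Eif2a and Eif2d encode separate proteins that can deliver a tRNA to the ribosome without eIF2, and their differences had opposite signs. Eif2a had signals of 2779 with blue light and 3480 without it, a difference of -0.32, and Eif2d had signals of 1045 with blue light and 826 without it, a difference of 0.34. Both X-linked members, Eif1ax and Eif2s3x, were below 0, while 348 named X-linked probe sets over the signal cutoff had a median difference of -0.06.

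All 5 genes of eIF2B, the factor that exchanges GDP for GTP on eIF2 and that phosphorylated eIF2 inhibits, were above 0. Their log2 differences ran from 0.08 to 0.54 with a median of 0.26, and all 5 stayed above 0 under median, quantile and loess scaling. Those scalings changed the members by only -0.045 to 0.076, less in size than the smallest of the 5, 0.084 for Eif2b5. The kept signs therefore add no support. Eif2b4, the gene of the regulatory delta subunit, had a signal of 116 with blue light and 80.2 without it, a ratio of 1.45. Of the other regulatory subunit genes, Eif2b2 had signals of 1691 with blue light and 1392 without it. Eif2b1 stood at 1124 with blue light and 1010 without it. Among the catalytic subunits, Eif2b3 stood at 579 with blue light and 484 without it, and Eif2b5 at 86.4 with blue light and 81.5 without it. None of the 5 differences reached 1.5-fold, and each was inside the range of its brightness neighbours, which for Eif2b4 ran from -0.95 to 0.91. Each of the 5 is a separate probe set, but all come from the same pair of RNA samples, so their common sign is not repeated evidence.

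**Figure D3:**
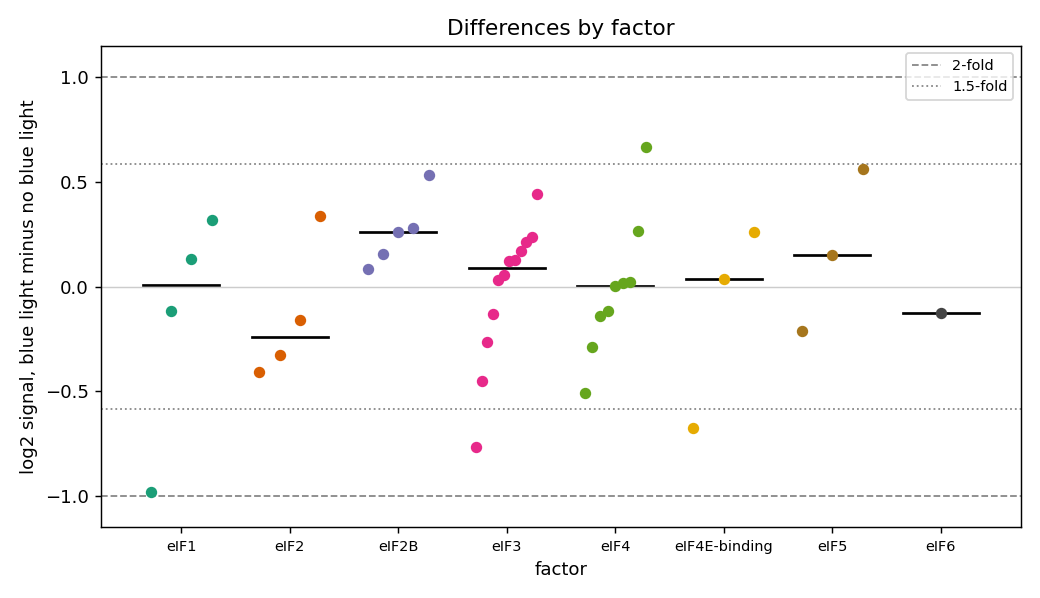
Log2 difference, blue light minus no blue light, of the 41 initiation factor genes over the signal cutoff, by factor, with the median of each group (black bar), 1.5-fold (dotted) and 2-fold (dashed). The 5 points of eIF2B all lie above 0, whereas eIF3 and eIF4 spread to both sides.

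The 12 genes of eIF3 had a median difference of 0.09, with 8 above 0 and 4 below. Its subunits form an octamer core and a set of peripheral parts. Of the 8 genes of the octamer, 6 were above 0 (5 under median scaling, where Eif3f crossed it), with a median of 0.15. Eif3m was the highest, at 10770 with blue light and 7927 without it, a ratio of 1.36, and Eif3h, Eif3k, Eif3e, Eif3l and Eif3f followed with ratios from 1.18 to 1.02. The 2 octamer genes below 0 were Eif3a, the gene of the largest subunit, with signals of 1718 with blue light and 2348 without it, and Eif3c, with signals of 51370 with blue light and 56290 without it. The ratio was 0.732 for Eif3a and 0.913 for Eif3c.

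Among the peripheral subunits, Eif3i stood lowest. It encodes a propeller protein that binds the scaffold subunit encoded by Eif3b, and had a signal of 2024 with blue light and 3442 without it, a ratio of 0.588. The difference of -0.77 was just below the range of its brightness neighbours, whose lower end was -0.75. Eif3b itself had signals of 8790 with blue light and 8079 without it, a ratio of 1.09, and Eif3d, whose product can bind the cap of some mRNAs, had signals of 8427 with blue light and 10120 without it, a ratio of 0.833. Eif3j2, a close copy of the eIF3j gene Eif3j1, stood at 309 with blue light and 298 without it. The log2 differences of Eif3i and Eif3m, whose products belong to the same complex, were thus 1.21 apart. These 2 genes held the lowest and the highest difference of the eIF3 genes.

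The cap-binding and unwinding factors of eIF4 were centred on 0, with a median difference of 0.00 over 9 genes above the signal cutoff. Eif4e, the main cap-binding protein gene, had a signal of 7945 with blue light and 7824 without it. Its relative Eif4e2, whose product represses translation of bound mRNAs, had signals of 2796 with blue light and 2791 without it. Eif4b, which encodes a helper of the helicase, stood at 47700 with blue light and 47100 without it. Their log2 differences lay between 0.00 and 0.02. Median scaling put these 3 genes just below 0, leaving 2 of the 9 genes above it, against 5 as deposited. The helicase gene Eif4a1 was at 61820 with blue light and 68040 without it, a ratio of 0.909, and Eif4h, another helper, had a ratio of 0.921.

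Larger differences within eIF4 lay in genes other than these. Eif4a3, whose helicase is a core part of the exon junction complex and not of cap binding, had a signal of 1507 with blue light and 2141 without it, a ratio of 0.704. Eif4g2 encodes a scaffold protein without an eIF4E binding site and had signals of 73510 with blue light and 89860 without it, a ratio of 0.818. The scaffold gene Eif4g3 had signals of 136 with blue light and 113 without it, a ratio of 1.20. Eif4e3, which encodes a less common cap-binding protein, reached 85.5 with blue light, against 54.0 without it, a ratio of 1.59. This was the highest ratio among members over the signal cutoff, but it lay inside the range of its brightness neighbours, from -1.14 to 0.90, and its log2 difference shrank to 0.49 with 24 added to both signals.

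Of the members under the signal cutoff, Eif4a3l1, a copy of Eif4a3, had a signal of 37.1 with blue light and 16.5 without it, a ratio of 2.24. It did not count as higher because the no blue light signal was under 24, and on both arrays it was far below the 95th percentile of the negative control probes. Eif4e1b, known from oocytes, had signals of 16.7 with blue light and 11.6 without it and was under the cutoff on both arrays. A further 5 members over the cutoff, Eif2b4, Eif2b5, Eif3j2, Eif4e3 and Eif4g3, were under that 95th percentile on both arrays, so their ratios are the least certain.

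The genes that bind eIF4E split. Eif4ebp2 encodes an inhibitor that blocks the pairing of eIF4E with its scaffold until it is phosphorylated by mTORC1, and it had a signal of 423 with blue light and 676 without it, a ratio of 0.625. Eif4ebp1, which encodes a related inhibitor, had signals of 5845 with blue light and 4871 without it, a ratio of 1.20. The log2 differences of the 2 genes were 0.94 apart, and each was inside the range of its brightness neighbours. Eif4enif1, whose product carries eIF4E into the nucleus, had signals of 1009 with blue light and 984 without it.

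In the eIF5 group, Eif5b was the highest. It encodes the GTPase that joins the large subunit, and had a signal of 854 with blue light and 578 without it, a ratio of 1.48, with a log2 difference of 0.56 inside the range from -0.85 to 0.72 of its neighbours. Eif5a encodes the factor that carries the modified residue hypusine and is now known mainly for elongation, and it had signals of 350100 with blue light and 315200 without it, a ratio of 1.11. Its relative Eif5a2 had signals of 308 with blue light and 356 without it, a ratio of 0.864. Eif6 stood at 6934 with blue light and 7553 without it, a ratio of 0.918.

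Promoter windows from RefSeq (GRCm38.p6), from 250 bases before to 50 after the start site, were on hand for 33 of the 44 members. They were searched on both strands for the heat shock element in its short form GAANNTTC, which reads the same on both strands, since chaperone genes are known targets of that element. It was found for 5 members, Eif3a, Eif3f, Eif4a3l1, Eif5a2 and Eif5b, and in 7.86% of all windows. Stretches of 4 of these, of 100 bases each or 125 for Eif5a2, are shown because their genes share the element and yet lay on both sides of 0. They lie at chr1:37997800-37997899 (plus strand), chr7:108934265-108934364 (plus strand), chr3:28781067-28781191 (plus strand) and chr19:60790799-60790898 (minus strand), all before the start site, with the element in capitals.
Eif5b: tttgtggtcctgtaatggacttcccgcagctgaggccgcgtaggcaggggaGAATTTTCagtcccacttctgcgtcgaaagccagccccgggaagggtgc
Eif3f: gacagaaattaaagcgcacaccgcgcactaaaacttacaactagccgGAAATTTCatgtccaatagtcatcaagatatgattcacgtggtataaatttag
Eif5a2: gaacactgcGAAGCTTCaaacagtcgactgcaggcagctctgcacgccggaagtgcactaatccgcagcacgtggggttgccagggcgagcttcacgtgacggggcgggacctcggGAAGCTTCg
Eif3a: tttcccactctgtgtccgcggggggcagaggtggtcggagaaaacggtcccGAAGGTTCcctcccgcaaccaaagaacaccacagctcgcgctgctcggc
The log2 differences of these genes were 0.56 for Eif5b, 0.03 for Eif3f, -0.21 for Eif5a2 and -0.45 for Eif3a, so the same pattern stood in front of genes on both sides of 0. The 4 genes had a median difference of -0.09, against 0.02 for 27 measured members with a window that lacks the element.

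The E-box CACGTG, which also reads the same on both strands, was in windows of 9 members (Eif1b, Eif3a, Eif3f, Eif3k, Eif4a1, Eif4e, Eif4h, Eif5a and Eif5a2) and in 7.15% of all windows. Those 9 genes had a median difference of 0.02, against 0.03 for 22 members without it. The ATF4 composite site TGATGNAAN was in 1 member window, that of Eif2s3x, and in 3.95% of all windows. Its core TGATGCAA, which the composite pattern overlaps, was in 0 member windows and in 0.895% of all windows. A match describes letters only. Members are counted by gene, and some, such as Eif5a, have several windows, whereas the shares are over all 32851 windows.

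Of 23 measured partners of initiation, 0 were higher and 0 lower past 2-fold, beside 0.958% higher and 1.37% lower among all gene probe sets. Their median difference was -0.01, and 43.5% of them were above 0. Mknk2, which encodes a kinase of eIF4E, had signals of 5037 with blue light and 8317 without it, a ratio of 0.606. Pdcd4, the gene of an inhibitor of the eIF4A helicase, stood at 444.5 with blue light and 677 without it, a ratio of 0.656. Paip2b, the gene of an inhibitor of poly(A)-binding protein, stood at 57.9 with blue light and 38.9 without it, a ratio of 1.49. Pabpc1, the main poly(A)-binding protein gene, was listed at an identical 899000 on both arrays. Identical values were found for 48 of 11695 gene probe sets over the signal cutoff. Among these were 15 of the 31 gene probe sets with a mean log2 signal of 19 or more. Whether identical values measure a lack of change was not tested. Of the 44 members, 0 had identical values.

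Genes of eIF2 phosphorylation had a median difference of 0.14 over 8 probe sets above the signal cutoff, and 0 passed 2-fold. Past that fold, 0.958% of all gene probe sets were higher and 1.37% were lower. Impact, which encodes an inhibitor of the kinase GCN2, had a signal of 285 with blue light and 183 without it, a ratio of 1.56. Dnajc3, which encodes an inhibitor of eIF2 kinases, stood at 2302 with blue light and 1771 without it, a ratio of 1.30. The kinase genes Eif2ak1, Eif2ak2 and Eif2ak4 had ratios from 0.758 to 0.810, while Eif2ak3, which encodes PERK, had a ratio of 1.23. Ppp1r15a, the stress-induced phosphatase subunit gene, was under the cutoff on both arrays, at 13.6 with blue light and 13.7 without it. In the mTORC1 list, which holds genes of the complex, its regulators and its S6 kinase substrate, 0 of 10 measured genes passed 2-fold and their median was 0.10. The inhibitor gene Deptor was the lowest of these at a ratio of 0.533, with signals of 130.1 with blue light and 244 without it, and Mtor had a ratio of 0.599, with signals of 300.3 with blue light and 501 without it, while Ddit4, an inhibitor induced by stress, had signals of 102.1 with blue light and 68.0 without it and a log2 difference of 0.59.

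Beside other genes of translation, the initiation factors had neither the highest nor the lowest median. Elongation and termination factors had a median difference of 0.02 over 11 probe sets, cytosolic aminoacyl-tRNA synthetases 0.09 over 18 and cytosolic ribosomal proteins 0.12 over 61. Above 0 were 44 of the 61 ribosomal protein probe sets, or 72.1%, with 15 below 0 and 2 identical on both arrays. The share above 0 was 63.9% under median scaling and 78.7% under loess scaling. Over all gene probe sets the share was 48.5% as deposited, 43.9% under median scaling and 49.6% under loess scaling. In those 3 lists 0 probe sets passed 2-fold, beside 0.958% higher and 1.37% lower among all gene probe sets. The largest differences were -0.33 for Eef2k, the kinase gene of elongation factor eEF2, 0.26 for Eef1g and -0.24 for Hbs1l, then 0.65 for the leucyl synthetase gene Lars, -0.63 for the isoleucyl synthetase gene Iars and 0.54 for Farsa. Among ribosomal protein genes they were 0.61 for Rpl36al, 0.58 for Rpl7a and 0.56 for Rpl38. Mitochondrial translation factors had a median of -0.33 over 9 probe sets, with Mtif3, the mitochondrial counterpart of an initiation factor, higher past 2-fold at a signal of 185 with blue light and 78.7 without it. Gfm2, which encodes a factor that recycles mitochondrial ribosomes, had signals of 131.7 with blue light and 224 without it, a ratio of 0.589. Mrrf, the gene of another recycling factor, stood at 1065 with blue light and 1491 without it, a ratio of 0.715. Mtrf1, a gene of the release factor family, had a ratio of 0.747. Mtif2, the other mitochondrial initiation factor gene, had signals of 96.6 with blue light and 128 without it, a ratio of 0.755. Mtif3, Gfm2, Mtrf1 and Mtif2 were under the 95th percentile of the negative control probes on both arrays, so their ratios are uncertain. The same holds for Paip2b, Impact, Eif2ak4, Deptor, Ddit4 and Eef2k in the lists above. The medians of the initiation partners and of the elongation and termination factors lay on either side of 0 depending on the scaling, from -0.05 to 0.03 and from -0.02 to 0.06. The differences between lists were not tested, since each list rests on the same pair of arrays.

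**Figure D4:**
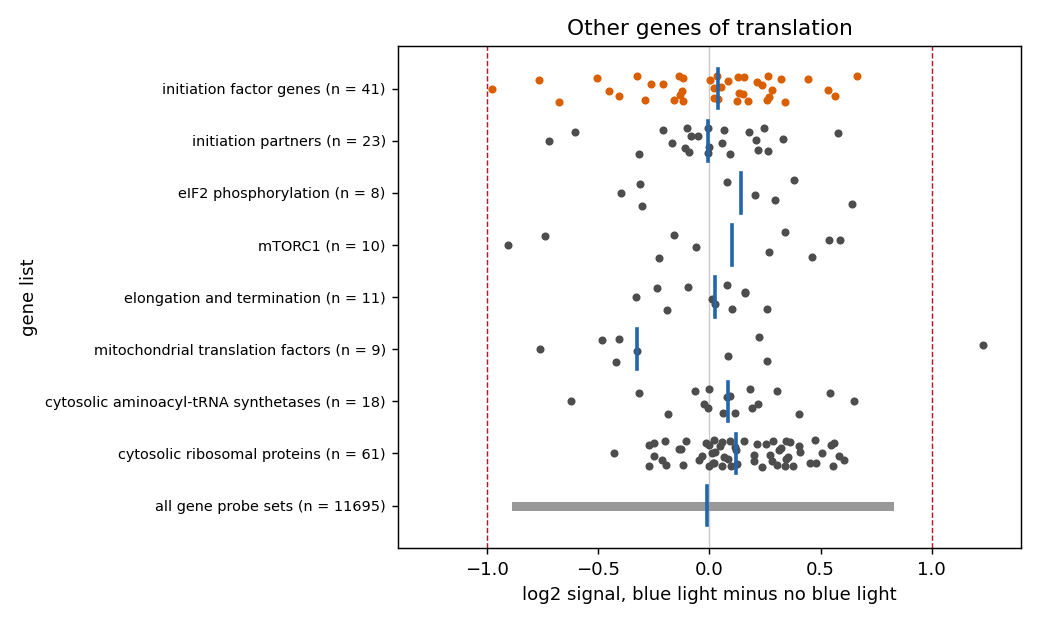
Log2 difference, blue light minus no blue light, of the initiation factor genes (orange) and of 7 other lists of translation genes over the signal cutoff, with the median of each list (blue bar), 2-fold (dashed) and, for all 11695 gene probe sets, the central 95% (grey bar). The medians lie between -0.33 and 0.14, and only Mtif3 lies outside the dashed lines.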

How the data were processed

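F2 cells transfected with hBACCS2 gave 1 Clariom S mouse array with blue light and 1 without it. Signals were normalized by the authors with software of the array service (Filgen) and deposited as log2 values. The sources used here do not say how that software normalizes, and another method could shift all differences together. Of 28846 rows, 6640 control rows were left out. Of 22206 gene probe sets, 19572 have a symbol in the platform annotation and 2634 are unnamed here. The cutoffs, a signal over 24 with a ratio above 2 or under 0.5, are those of the study's methods. Requiring that signal on both arrays was chosen here.

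Each difference is the deposited log2 signal with blue light minus that without it. The 2 arrays limit all precision, and no test was made. Members and lists were chosen with earlier results of these data known. Named were members by factor and, of each other list, those past the cutoffs and up to 3 others with the largest differences. Other named genes were chosen after their values were seen. Only the fold call and the median, quantile and loess scalings were tested on simulated data, whose spread was smaller than that of these arrays. Alternatives were median, quantile and loess scaling (span 0.3), 24 added to both signals, other cutoffs, and the mean per symbol. Promoters are RefSeq windows of GRCm38.p6. Python 3.11.15, numpy 2.4.6, pandas 2.3.3 and statsmodels 0.14.6 were used.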

Additional observations from a re-analysis of the deposited data

How the results depend on the processing

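Of the counts past the cutoff, 0 higher and 0 lower as deposited, the lower count was 1 under median scaling, where Eif1ax reached -1.02 on the log2 scale, against values of -0.93 to -0.98 under the other settings. The higher count was 1 when 24 was passed on either array or with no signal cutoff, the gene being Eif4a3l1. At 1.5-fold the counts were 1 higher and 3 lower. The counts did not move under quantile or loess scaling, with 24 added to both signals, with the mean per gene symbol or with the signal cutoff raised to 100.

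No library could be left out and no paired analysis was possible because each condition has 1 array. The median difference of the members was -0.01 under median scaling and 0.03 to 0.09 under the 7 other settings tried, and no median of a factor moved by 0.1 or more. Since there is no replicate, 0.1 on the log2 scale was used as the size of a move. The median was 0.06 without the 7 members that have a close copy, a setting chosen after seeing the data. Leaving out copies by protein identity was not run, since no protein table was used. Of 41 members, 5 changed sign under median scaling, all with differences of 0.04 or less in size, and 0 under the other scalings. With 24 added, 2 moved by more than 0.1, Eif4e3 and Eif2b4. Brightness near the negative controls limits the ratios of dim members, and 35 of 44 members were over the 95th percentile of the negative control probes on both arrays.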
